A study of Mus musculus with 8 samples.

Results

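This section describes the genes of the yellow agouti locus on mouse chromosome 2 in the ileum of KKAy mice: agouti itself (symbol a), Raly, Eif2s2 and Ahcy. The members were chosen by gene symbol in the platform annotation. Of these 4 genes, 2 had a probe set under their symbol, Eif2s2 and Ahcy, with 1 probe set each among 22206 on the array, of which 19572 carried a gene symbol. No probe set was matched to a or to Raly by symbol, gene identifier or transcript accession, so both are not analysed here, and none of the values below speaks of the level of agouti. The label of the locus is kept because the measured pair flanks a in the RefSeq gene order, with Eif2s2 next to it on 1 side and Ahcy on the other.

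Agouti is a secreted antagonist of melanocortin receptors. In hair follicles it blocks the receptor Mc1r on pigment cells and switches them from black to yellow pigment, and when it is made everywhere it also blocks Mc4r in the hypothalamus and causes obesity and diabetes. The yellow allele arose by a deletion that removes the coding part of Raly and the whole of Eif2s2 and leaves a under the promoter of Raly, which is active in most tissues. The allele is lethal when homozygous, so living carriers keep 1 intact copy of Raly and Eif2s2. Raly encodes an RNA-binding protein of the hnRNP C family. Eif2s2 encodes the beta subunit of eIF2, the factor that brings the initiator tRNA to the ribosome. Ahcy encodes adenosylhomocysteinase, which removes the product of methyl transfer, S-adenosylhomocysteine, and lies outside the deletion. These statements are background.

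RNA came from a length of about 4 cm of ileum from each of 8 mice of the KKAy strain, labelled male and described as 14 weeks old and 30 g, with 1 Affymetrix array per mouse. Whether that age and weight apply to the start of the study or to tissue collection is not stated here. Fat supplied 45% of the energy in the diet of both groups. After 4 weeks on it, 4 mice were gavaged daily with water and 4 with voglibose (1 mg/kg) over 8 weeks. Voglibose blocks the brush border enzymes that split starch and sucrose, which delays glucose uptake. Both groups carry the strain's yellow allele as far as the strain name tells, no genotype is given for single mice, and no mouse without the allele was measured, so an effect of the allele on any gene could not be measured. Y-linked genes were dim in all 8 mice, which goes against the labelled sex. Of 4 such genes that male tissue expresses broadly, chosen after seeing the data, 3 were measured, and in all 8 mice Eif2s3y had 2.48 to 2.79, Kdm5d 2.62 to 3.13 and Uty 2.79 to 3.39 (log2 signal). These are below the median of 3.74 of olfactory receptors, genes that gut tissue should hardly express. Female mice and probe sets that do not respond cannot be told apart here, and both groups were alike in this. The comparison asks which ileal transcripts differ after voglibose.

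The promoter windows of the measured pair are shown because they are the control regions of the genes whose values follow, on either side of a. Both are the 250 bases before the gene start in RefSeq (GRCm38.p6), both genes lie on the minus strand, and the sequences run 5′ to 3′ in the direction of the gene with each CG dinucleotide in capitals. The Eif2s2 window lies at chr2:154892907-154893156 and the Ahcy window at chr2:155074498-155074747.
Eif2s2: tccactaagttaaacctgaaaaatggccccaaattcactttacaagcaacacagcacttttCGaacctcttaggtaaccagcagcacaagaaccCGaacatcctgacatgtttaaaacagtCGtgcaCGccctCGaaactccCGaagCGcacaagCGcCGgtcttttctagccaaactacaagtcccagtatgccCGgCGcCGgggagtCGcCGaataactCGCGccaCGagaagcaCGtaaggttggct
Ahcy: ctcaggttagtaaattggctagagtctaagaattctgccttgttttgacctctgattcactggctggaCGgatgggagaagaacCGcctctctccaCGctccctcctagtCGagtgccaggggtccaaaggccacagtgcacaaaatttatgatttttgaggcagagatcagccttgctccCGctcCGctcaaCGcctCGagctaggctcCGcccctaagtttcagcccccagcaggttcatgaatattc

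The Eif2s2 window held 18 CG dinucleotides at 51.6% G and C, and the Ahcy window 9 at 52.8%. Over 32851 such windows in the mouse genome the median was 6 CG dinucleotides and 52.4% G and C, and 78.3% of windows had fewer CG dinucleotides than Eif2s2. The window of Raly, the promoter that the yellow allele places before a, held 19 CG dinucleotides at 72.8% G and C, more G and C than 94.0% of all windows. The window of a itself held 3 at 50.0%. The GC box letters GGGCGG, searched on both strands, occurred 5 times in the Raly window, 1 time in that of Ahcy and 0 times in those of Eif2s2 and a, and 32.7% of all windows held them. These are descriptions of the reference sequence of another strain, not of the KKAy mice.

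Both measured members gave bright signals in every mouse. Eif2s2 had log2 signals of 14.04, 14.38, 14.10 and 13.85 in water mice 1 to 4. In voglibose mice 1 to 4 it had 12.74, 13.17, 13.86 and 13.83. Voglibose mice 1 and 2 were thus the lowest of the 8, while voglibose mice 3 and 4 lay beside water mouse 4, so the groups overlapped. Ahcy had 11.52, 11.71, 11.39 and 11.76 in water mice 1 to 4, and 11.17, 11.25, 11.69 and 11.60 in voglibose mice 1 to 4. Its lowest values also belonged to voglibose mice 1 and 2, and its voglibose mice 3 and 4 lay inside the range of the water mice.

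**Figure D1:**
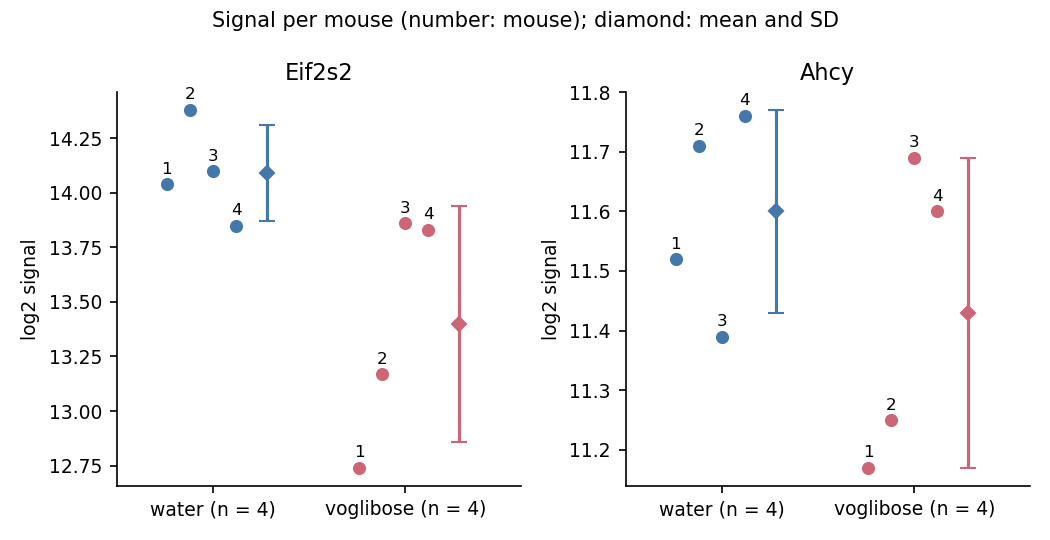
Log2 signal of Eif2s2 (left) and Ahcy (right) in each of the 4 water and 4 voglibose mice, with the mouse number at each point and a diamond with bars for the group mean and SD. For Eif2s2 3 of the 4 voglibose mice lie below all water mice and for Ahcy 2 of 4. The axes do not start at 0 and differ between the panels.

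Within the arrays, Eif2s2 ranked between 731 and 1535 of 22206 probe sets from the brightest, and its mean percentile was 95.4 (93.1 to 96.7). Ahcy ranked between 2406 and 2866, at a mean percentile of 88.2 (87.1 to 89.1). The median of all signals was 5.91. The 1091 probe sets for olfactory receptors had the median of 3.74 given above, and 0 of them had a higher mean signal than Eif2s2 and 1 had a higher one than Ahcy. A rank describes the signal of a probe set, and since probes differ in how strongly they bind, it does not measure how many transcripts 1 gene has against another. In a piece of tissue, fewer cells of a type and less RNA per cell cannot be told apart.

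**Figure D2:**
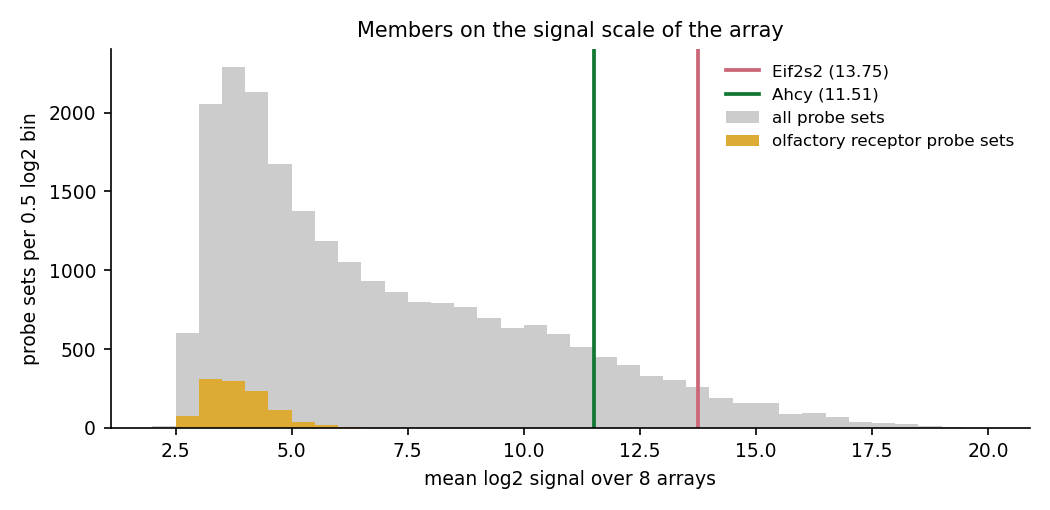
Number of probe sets per bin of 0.5 of the mean log2 signal over 8 arrays, for all probe sets (grey) and for olfactory receptors (yellow), with lines at the means of Ahcy (11.51) and Eif2s2 (13.75). Both members lie to the right of the bulk of the array and of the bulk of the olfactory receptors. Of the olfactory receptor probe sets, 1 had a higher mean than Ahcy and 0 had a higher one than Eif2s2.

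Eif2s2 averaged 14.09 ± 0.22 with water and 13.40 ± 0.54 with voglibose (log2 signal, SD, n = 4). The difference, voglibose minus water, was -0.69 ± 0.25 (SE), with a 95% interval from -1.24 to -0.15, or 0.62 of the water level on a linear scale (0.42 to 0.90). All 4 voglibose mice lay below the water mean and 3 of 4 below every water mouse. Its unadjusted p was 0.0170 and its adjusted p was 0.652 (limma, Benjamini-Hochberg over all probe sets), so Eif2s2 did not pass the test. The exact permutation p (2-sided) was 0.0571, where the smallest this design allows is 0.0286. Over the alternatives the adjusted p ran from 0.515 to 0.994, and 13 of 15 had an unadjusted p under 0.05. The exceptions were the model without moderation of the variance (limma's lmFit alone, where the unadjusted value was 0.0559) and the limma fit without voglibose mouse 1 (unadjusted value 0.0502), where the difference was -0.47.

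Ahcy averaged 11.60 ± 0.17 with water and 11.43 ± 0.26 with voglibose (SD, n = 4). The difference was -0.17 ± 0.17 (SE), with a 95% interval from -0.53 to 0.20, or 0.89 of the water level (0.69 to 1.15). The adjusted p was 0.846 (limma, unadjusted p = 0.333), and 2 of 4 voglibose mice lay below the water mean. A fall to 0.69 of the water level and a rise to 1.15 of it are both inside this interval. Without voglibose mouse 1 the difference was -0.08, without mouse 3 of that group -0.26, and after a further quantile normalization -0.09. The gap between the log2 signals of Eif2s2 and Ahcy within a mouse was 2.50 ± 0.28 with water and 1.97 ± 0.30 with voglibose, a change of -0.52 (SD, n = 4; exact permutation p = 0.0857, 2-sided), so unequal change of the pair did not pass a threshold of 0.05.

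Of the 2 measured members, 0 passed at an adjusted p of 0.05, as did 0% of the array, and 1 (Eif2s2) had an unadjusted p under 0.05, where 7.52% of all probe sets did (1671 of 22206). In the direction of Eif2s2, lower in voglibose mice, 4.44% of all probe sets had such a p. Among the 11102 probe sets above the median signal, where both members lie, 7.08% did. The count of 1671 was 969 without voglibose mouse 1, the mouse with the lowest Eif2s2 and Ahcy. The groups did not overlap for 0 of the 2 members and for 4.35% of all probe sets.

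The spread of Eif2s2 between mice of 1 group differed between the groups, with an SD of 0.22 in water mice and 0.54 in voglibose mice, a difference that was not tested. Pooled over both groups the SD was 0.41, and 83.5% of the probe sets above the median signal had a smaller pooled SD (median 0.27). For Ahcy the pooled SD was 0.22, and 31.7% had a smaller one. Over the 8 mice the pair gave a Pearson r of 0.77 (exact permutation p = 0.0436) and a Spearman rho of 0.50 (exact permutation p = 0.216), 2-sided. This was the 1 correlation between members that could be computed, so adjustment leaves both p-values as they are. Without voglibose mice 1 and 2, the mice farthest from the median of Eif2s2, r was -0.13 (exact permutation p = 0.711, 6 mice). The high r thus depended on these 2 mice. Leaving them out narrows the range of Eif2s2, so the 6 others cannot show whether a relation is absent among them. With values centred within each group r was 0.74 (permutation p = 0.0423) and rho was 0.69 (permutation p = 0.0694). Centred values of 2 groups with unlike spread are not freely exchangeable, so these 2 p-values are approximate.

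Markers of the region of gut and of other tissue ran beside these values. The 9 of 10 measured enterocyte markers averaged from 14.66 to 16.65 with water and from 14.73 to 16.05 in voglibose mice. Sis, Apoa1 and Fabp2 were among the brightest of them, with group means between 18.44 and 19.03. Fabp6 and Slc10a2 were dimmer, at 11.03 and 9.56 with water and 8.54 and 8.80 with voglibose. Lct went the other way, at 14.62 and 15.38. The enterocyte markers Vil1, Sis, Alpi and Apoa4 were also slightly higher with voglibose, and Apoa1 and Fabp2 slightly lower. The 5 of 5 measured markers of the distal ileum (Fabp6, Slc10a2, Fgf15, Slc51a and Slc51b) averaged from 8.75 to 15.35 with water and from 8.61 to 11.71 in voglibose mice. Fabp6, the ileal bile acid binding protein, was as low as 4.01 in water mouse 4 and 3.54 in voglibose mouse 2 and as high as 17.50 in water mouse 2. In water mice the order of the distal means, 15.35, 12.69, 10.46 and 8.75 in mice 2, 3, 1 and 4, was also the order of Eif2s2. In the treated group mice 1 and 2 had distal means of 10.02 and 8.61 and mice 3 and 4 had 11.66 and 11.71. There the order differed from that of Eif2s2, which was lowest in mouse 1 (12.74) and not in mouse 2 (13.17). Over the 8 mice the distal means gave a Pearson r of 0.66 with Eif2s2, which was not tested. Over the 9 marker lists this r ran from -0.46 (pancreas) to 0.79 (fibroblast and mesothelium). Without water mouse 4 and voglibose mouse 2, the lowest in each group, the difference of Eif2s2 was -0.70 ± 0.29 and that of Ahcy -0.05 ± 0.19 (SE), a choice made after seeing the data.

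Voglibose mouse 2 also carried pancreatic transcripts. The 3 of 4 measured pancreas markers averaged 9.62 in it and from 4.71 to 4.98 in all water mice and from 4.84 to 4.97 in the other voglibose mice, with the carboxypeptidase Cpa1 at 12.01 and the trypsinogen Prss2 at 10.77. Without this mouse the difference of Eif2s2 was -0.62 and that of Ahcy -0.11. The 6 of 7 measured fibroblast and mesothelium markers averaged from 8.14 to 8.73 with water and from 7.99 to 8.47 in voglibose mice, lowest in voglibose mice 1 and 2 (7.99 and 8.07), and their part in the result was not tested. Smooth muscle markers (6 of 6 measured) averaged from 11.11 to 14.36 with water and from 12.34 to 13.43 in voglibose mice. Leukocyte markers (7 of 9 measured) averaged from 9.78 to 11.58 and from 10.17 to 11.34. The part of these 2 lists in the result was not tested either. Adipocyte markers (6 of 7 measured) averaged from 6.05 to 7.08 and from 6.11 to 6.64, and the list was split. The fat hormone genes Adipoq and Lep, which define the cell type, lay near the lower quartile of all signals (4.13), at 4.38 and 3.75 in water mice and 4.23 and 3.54 in voglibose mice. The fatty acid binding protein Fabp4, which endothelium also expresses, and the lipid droplet gene Cidec were bright, at 11.98 and 10.53 in water mice and 11.89 and 10.54 in voglibose mice. The 6 of 6 measured markers of hair follicle and skin, where agouti normally acts, averaged from 3.92 to 4.24 over all mice, at the level of the olfactory receptors.

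The neighbourhood of a was measured in 19 of the 20 protein-coding genes within 10 places on either side of it, and 17 of them are not members. In these 17 the differences ran from -0.26 to 0.23, with 11 higher and 6 lower in voglibose mice and a median of 0.01. Over all probe sets 10896 were higher and 11310 lower, with a median of 0.00. None of the 17 had an unadjusted p under 0.05 (limma, smallest 0.153, adjusted 0.761 to 0.997). Among all probe sets 7.52% had such a p, and in so short a list 0 is near that share. Eif2s2 had the largest difference of the 19 genes, which was not tested against its neighbours. The nearest measured genes beyond the members were Chmp4b, a subunit of the ESCRT-III membrane-cutting complex, and Itch, a ubiquitin ligase first found through a rearrangement of the agouti locus. Chmp4b had 11.51 ± 0.20 with water and 11.28 ± 0.13 with voglibose (SD, n = 4), and Itch 12.16 ± 0.21 and 12.23 ± 0.04. Their differences were -0.23 ± 0.15 and 0.08 ± 0.14 (SE). Dynlrb1, a light chain of the dynein motor and the brightest of the 19, had 15.11 ± 0.22 and 14.88 ± 0.22 (SD), a difference of -0.23 ± 0.17 (SE), with its lowest values in voglibose mice 2 and 1 (14.64 and 14.75).

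**Figure D3:**
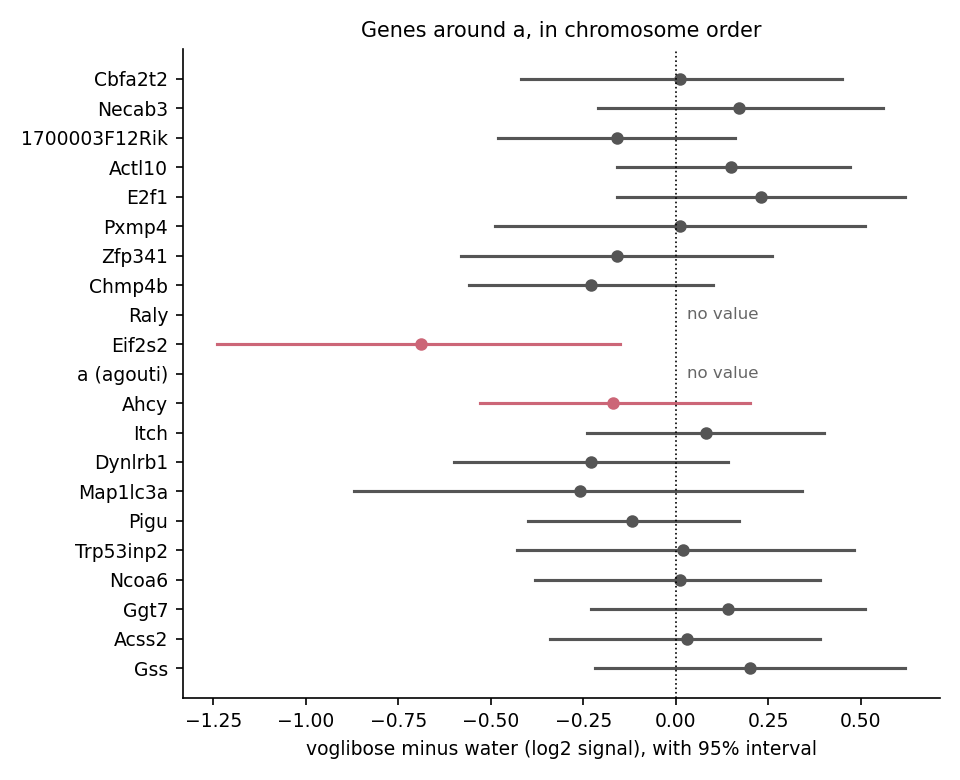
Difference between the groups, as log2 of voglibose over water, with its 95% interval, for the 20 protein-coding genes nearest to a in chromosome order from top to bottom, with a and Raly listed without a value. The interval of Eif2s2 (red, -1.24 to -0.15) is the one that does not reach 0, and that of Ahcy (red) and all 17 others do.

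Other components of translation initiation around eIF2 were measured for 22 of 25 listed genes. In voglibose mice 16 had lower and 6 had higher signal, with a median difference of -0.18, and 0 passed over all genes (limma, adjusted p 0.658 to 0.995). Over all probe sets 10896 were higher and 11310 lower, with a median of 0.00. Unadjusted p was under 0.05 for 3 of the 22, all lower: Eif2ak2, Eif2b3 and Eif2a. Of all probe sets 4.44% were lower with such a p, and of those above the median signal, where 18 of the 22 lie, 7.08%. Eif2ak2 encodes PKR, the kinase that phosphorylates eIF2 when it meets double-stranded RNA and is itself induced by interferon. It had 10.80 ± 0.47 with water and 10.16 ± 0.31 with voglibose (SD, n = 4). Eif2b3, a subunit of the exchange factor that reloads eIF2 with GTP, had 8.55 ± 0.09 and 8.09 ± 0.41, and Eif2a, a separate initiation factor, 13.63 ± 0.10 and 13.21 ± 0.36. The last 2 were low in the same mice as Eif2s2: voglibose mice 1 and 2 had 7.74 and 7.82 for Eif2b3 and 12.75 and 13.12 for Eif2a, while mice 3 and 4 had 8.64 and 8.16, and 13.55 and 13.44. Mcts1, which acts with Denr in the release and restart of ribosomes, differed by -0.32 ± 0.14 (SE).

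The partner subunits of Eif2s2 in the eIF2 trimer, named after their values were seen, are Eif2s1 for alpha, which is not analysed here, and Eif2s3x or its Y-linked copy Eif2s3y for the gamma subunit. Eif2s3y had 2.67 ± 0.13 with water and 2.58 ± 0.13 with voglibose (SD, n = 4), the dim signal given above. Eif2s3x had 15.27, 15.26, 15.05 and 15.00 in water mice 1 to 4 and 14.60, 14.87, 15.07 and 15.11 in voglibose mice 1 to 4. As for Eif2s2, voglibose mice 1 and 2 were lowest. Voglibose mice 3 and 4 lay within the range of the water mice for Eif2s3x, where for Eif2s2 mouse 4 lay just below it. The difference was -0.23 ± 0.16 (SE; limma, adjusted p = 0.771). Of the 4 kinases of eIF2, Eif2ak1, Eif2ak3 and Eif2ak4 had higher signal in voglibose mice, by 0.25 ± 0.17, 0.20 ± 0.15 and 0.13 ± 0.13, and Eif2ak2 differed by -0.64 ± 0.24. No kinase passed over all genes.

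**Figure D4:**
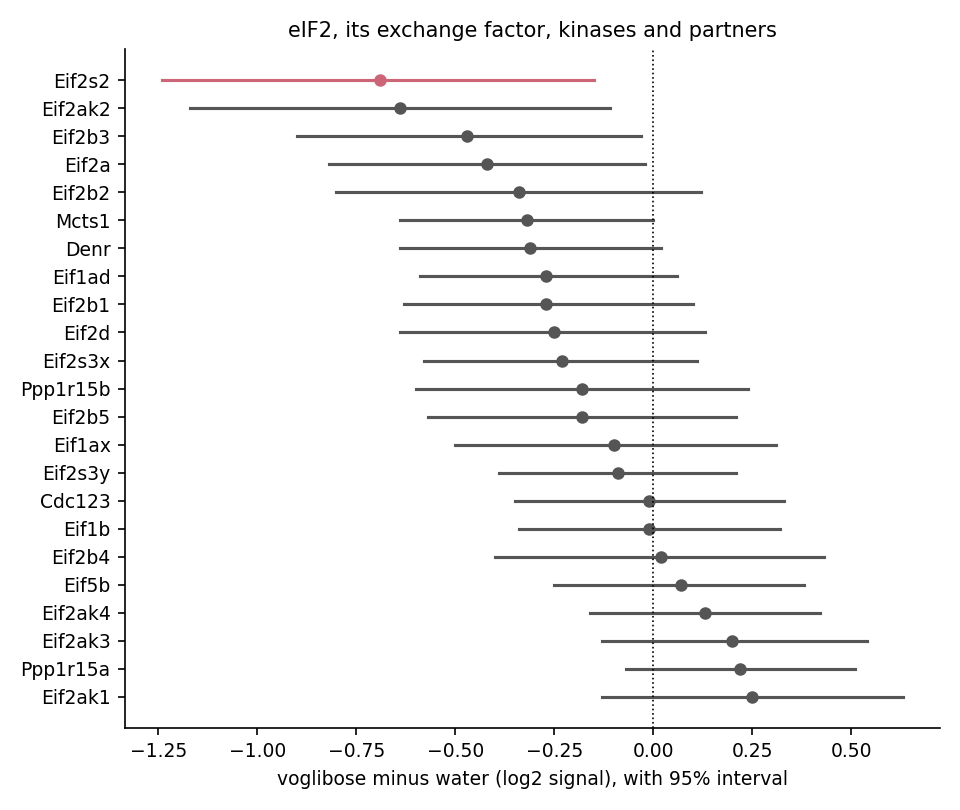
Difference between the groups (log2, voglibose minus water) with its 95% interval for Eif2s2 (red) and the 22 measured genes of eIF2, its exchange factor, kinases, phosphatases and related initiation factors, sorted by difference. Eif2s2, at -0.69, is the lowest of them, and 16 of the other 22 lie below 0.

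Genes of the methionine cycle, in which Ahcy takes its place, were measured for 22 of 25 listed. Of these, 13 had lower and 9 had higher signal in voglibose mice, with a median difference of -0.05, and 0 passed over all genes (limma, adjusted p 0.652 to 0.980). Unadjusted p was under 0.05 for 3 of the 22, all lower (Ada, Adk and Cth), beside 4.44% of all probe sets and 7.08% of those above the median signal. Adk and Ada act on adenosine, which Ahcy releases. Adk, the adenosine kinase, had 12.38 ± 0.31 with water and 11.67 ± 0.52 with voglibose (SD, n = 4). Per mouse it had 12.26, 12.68, 12.58 and 11.99 with water and 11.22, 11.24, 12.01 and 12.22 with voglibose, so its lowest values were again those of voglibose mice 1 and 2. Ada, the adenosine deaminase, had 16.35 ± 0.47 and 15.46 ± 0.84, with its lowest value, 14.24, in voglibose mouse 2. Cth, which makes cysteine from cystathionine, had 12.84 ± 0.46 and 12.12 ± 0.55. The next smallest p belonged to Pemt, which methylates phosphatidylethanolamine (-0.32 ± 0.15, SE, in the brightest of its 5 probe sets). In the other 4 its differences ran from -0.29 to 0.01. The relatives of Ahcy that regulate calcium and ion transport, Ahcyl1 and Ahcyl2, were named after their values were seen and differed by 0.23 ± 0.26 and 0.15 ± 0.14 (SE).

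**Figure D5:**
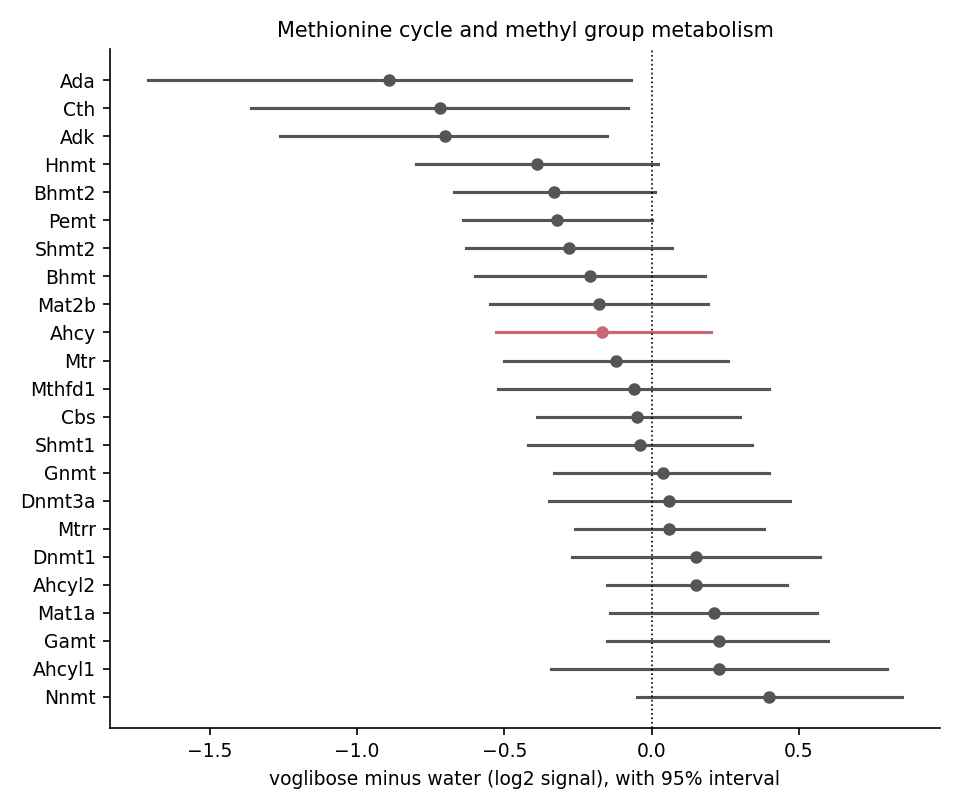
Difference between the groups (log2, voglibose minus water) with its 95% interval for Ahcy (red, -0.17) and the 22 measured genes of the methionine cycle and methyl group metabolism, sorted by difference. The intervals of Ada, Cth and Adk do not reach 0 and that of Ahcy does.

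The partners of agouti in the melanocortin system were measured for 15 of 17 listed genes. Melanocortin receptors were dim. Over all 8 mice Mc1r had 3.63 to 4.01, Mc3r 3.21 to 4.36, Mc4r 2.64 to 3.48 and Mc5r 2.26 to 3.26. The median of olfactory receptors was 3.74, so these receptor signals could not be set apart from that background. Of the 15 genes, 9 were higher and 6 lower (median 0.07), 1 had an unadjusted p under 0.05, near the 7.52% of all probe sets, and 0 passed over all genes (limma, adjusted p 0.652 to 0.990). The former was Atrn, the attractin receptor that agouti needs for its action on pigment and weight, with 10.80, 10.60, 10.70 and 10.77 in water mice and 11.02, 11.50, 11.05 and 11.03 in voglibose mice. All 4 voglibose mice lay above all 4 water mice, by a mean of 0.43 ± 0.15 (SE; limma, adjusted p = 0.652), and the groups did not overlap for 4.35% of all probe sets. Mgrn1, the ubiquitin ligase mutated in mahoganoid mice, was also bright, at 10.17 ± 0.33 and 10.51 ± 0.37 (SD, n = 4), a difference of 0.34 ± 0.22 (SE). Mc4r and Mc2r, the corticotropin receptor, differed by 0.31 ± 0.17 and 0.21 ± 0.15 at dim signals.

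Pigment cell genes downstream of Mc1r were measured for 12 of 12 listed, and 1 of them had a mean above the median of all signals, the receptor kinase Kit at 6.87 in water mice. Kit is also expressed by the pacemaker cells and mast cells of the gut. The median difference was -0.05 (5 higher, 7 lower). No gene had an unadjusted p under 0.05, beside 7.52% of all probe sets (limma, adjusted p 0.678 to 0.980). The smallest p belonged to Gpr143, Slc24a5, Tyrp1 and Mlana, at differences of 0.28 ± 0.14, -0.21 ± 0.15, -0.34 ± 0.25 and 0.14 ± 0.15 (SE), all at dim signals with group means up to 4.37. The hnRNP proteins, the family of Raly, were bright, with 22 of 24 measured members (26 listed) above the median of all signals. Their differences were evenly split, 12 higher and 12 lower with a median of 0.00, and 0 passed over all genes (limma, adjusted p 0.659 to 0.997). Hnrnpd was the 1 of 24 with an unadjusted p under 0.05 (7.52% of all probe sets), with 12.54 ± 0.08 with water and 12.83 ± 0.03 with voglibose (SD, n = 4), and Hnrnpm, Hnrnph3 and Hnrnpll differed by 0.30 ± 0.16, -0.26 ± 0.16 and -0.28 ± 0.18 (SE). Hnrnpc, the closest relative of Raly that is widely expressed, named after its values were seen, had 12.99 ± 0.17 and 12.86 ± 0.28 (SD).

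The genes whose profile over the 8 mice was most like that of Eif2s2 by Pearson correlation were Rpp30 of the tRNA-processing enzyme RNase P (r = 0.994), Serinc1 (0.990), the spliceosome core protein Snrpd2 (0.990), the proteasome subunit Psmd6 (0.987) and Dram2 (0.985). Rpp30 had 9.75, 10.08, 9.89 and 9.71 in water mice and 8.82, 9.12, 9.61 and 9.59 in voglibose mice, with the same low pair of voglibose mice 1 and 2. In all, 303 probe sets (1.36% of the array) had r above 0.9 with Eif2s2 and 66 (0.30%) had r below -0.9. For Ahcy these were 78 (0.35%) and 80 (0.36%). The genes most like Ahcy were the histone genes H2bc3 (0.985) and H2ac15 (0.976), the nuclear pore gene Nup155 (0.982), the pseudouridine synthase Pus10 (0.978) and the mitotic kinesin Kif20b (0.966). With 8 arrays and 22206 probe sets high coefficients are common, and all values come from the same 8 samples, so these are a description.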

How the data were processed

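The deposited values are log2 signals per probe set, for 8 arrays. Per the submitters' processing notes the tools were RMA and the Transcriptome Analysis Console, whose versions are not stated. A log2 scale was inferred from the values (2.09 to 19.55, array medians 5.89 to 5.94). Genome build, slide and scan time: not given in the sources used here. No batch could therefore be tested. Correlations between arrays were 0.982 to 0.994, and the number of arrays limits the precision (median SE 0.18). Groups come from the labels, which call the 4 samples of a group mice.

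Probe sets were named by the platform annotation, and of several for a gene the brightest was used. Whether probes also match related gene copies was not tested. All probe sets were fitted by lmFit and eBayes of limma 3.58.1, under R 4.3.3, 2-sided, with Benjamini-Hochberg adjustment and a threshold of 0.05. The fit was checked on simulated data. Exact permutation tests used scipy 1.17.1, and figures matplotlib 3.10.9. The genes named were the members, their neighbours, up to 4 genes per list with the smallest p, and the 5 most alike. The members and lists were chosen with earlier results of these data known. RefSeq (GRCm38.p6) gave the gene order and promoter sequences. Of the results planned, those of a and Raly, and 5 of 6 correlations between members, could not be made. Alternatives were other normalizations, variance models, a signal filter, each mouse left out, and a replicate block. Another, chosen after seeing the data, left out the mouse of each group with the lowest distal ileum markers.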

Additional observations from a re-analysis of the deposited data

How the results depend on the processing

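Both members kept a lower signal in voglibose mice and an adjusted p above 0.05 in all 15 alternatives each. The difference of Eif2s2 ran from -0.85 to -0.47 when 1 mouse was left out and from -0.70 to -0.64 otherwise, and that of Ahcy from -0.26 to -0.08 and from -0.17 to -0.05. The ends -0.70 and -0.05 came from the fit without the mice lowest in distal ileum markers, chosen after seeing the data. Mean percentiles stayed within 95.2 to 95.7 for Eif2s2 and 88.1 to 88.4 for Ahcy. The count of probe sets at an unadjusted p under 0.05 was 988 when only probe sets above the median signal were tested, which are fewer by construction, and 969 to 1906 when 1 mouse was left out, where the cause was not tested. The adjusted count was 0 in all. The correlation of Eif2s2 with Ahcy was 0.66 after a further quantile normalization (exact permutation p = 0.105) and -0.13 without voglibose mice 1 and 2, and the cause was not tested. The same number in both groups did not mark similar mice (correlations of deviations 0.015, -0.324, 0.014 and -0.184 for numbers 1 to 4), and with the replicate block the count was 1529, with differences of -0.69 and -0.17. Each member had 1 probe set, so there was no other to try. Dim genes such as the melanocortin receptors lie at the level of the olfactory receptors, and the 4 mice per group limit what can be detected.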
